A study of Mus musculus with 18 samples.

Results

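Ribosome footprints were followed over 8 genes that write, maintain or oxidise DNA methylation, in mouse embryonic stem cells with and without the RNA-binding proteins Sam68 or Quaking. The genes were fixed by their Ensembl identifiers: Dnmt1 (ENSMUSG00000004099), Uhrf1 (ENSMUSG00000001228), Dnmt3a (ENSMUSG00000020661), Dnmt3b (ENSMUSG00000027478), Dnmt3l (ENSMUSG00000000730), Tet1 (ENSMUSG00000047146), Tet2 (ENSMUSG00000040943) and Tet3 (ENSMUSG00000034832). They are 8 of 51826 features listed in the count tables, of which 33167 had a count and 13701 passed the filter on low counts, all 8 genes among them. The genes were set by identifier and not by a cut on any measured value, though earlier results of these data were known when they were chosen.

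The study profiled ribosome-protected fragments of 28 to 32 nt, the stretches of mRNA covered by a ribosome and so kept from nuclease digestion, after cycloheximide had stalled translation. The cells were E14, a mouse embryonic stem cell line, and the 6 groups held 3 libraries each, described as biological triplicates: Sam68 KO at day 10, Sam68 KO at day 0, Quaking KO at day 10, Quaking KO at day 0, WT at day 10 and WT at day 0. Day 0 cells were stem cells and day 10 cells had differentiated as embryoid bodies, aggregates in which early embryonic cell types form. Sam68 and Quaking belong to the STAR family of RNA-binding proteins, and both knockout lines share the genetic background of the WT line. Whether each knockout line is a single clone is not given in the sources used here, and the p-values measure the spread between these triplicates.

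In mammals the methyl group is placed on cytosine, mostly where a guanine follows (a CpG). Dnmt1 copies the pattern to the new strand after replication, guided by Uhrf1, Dnmt3a and Dnmt3b set new methylation with the catalytically inactive cofactor Dnmt3l, and the Tet dioxygenases oxidise methylcytosine on the path to its removal. Embryonic stem cells are known for high Dnmt3b, Dnmt3l, Tet1 and Tet2, and methylation of CpG-rich promoters is a known form of gene silencing. Methylation itself was not measured in these libraries.

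Promoter windows of 4 genes are shown because their footprints moved furthest (Dnmt3l), in opposite directions (Tet1 and Tet3) or differently between lines (Dnmt3a). Each sequence is the 250 bases before an annotated start on the gene's own strand, from RefSeq (GRCm38.p6), in lower case with every CG dinucleotide in capitals. All 8 genes matched the RefSeq promoter table, with 15 windows in all, and which starts these cells use was not tested. The Tet3 and Dnmt3a windows lie inside the annotated gene spans. The Tet3 span reaches upstream to chr6:83457208 and the Dnmt3a span begins at chr12:3801559, so the outer ends of these 2 genes are not shown.
Dnmt3l, first start, chr10:78042037-78042286, plus strand: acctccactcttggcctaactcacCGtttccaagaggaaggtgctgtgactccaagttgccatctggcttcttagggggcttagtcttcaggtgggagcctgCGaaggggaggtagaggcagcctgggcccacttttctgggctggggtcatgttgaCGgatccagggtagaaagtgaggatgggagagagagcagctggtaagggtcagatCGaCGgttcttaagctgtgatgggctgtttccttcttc
Dnmt3l, second start, chr10:78049592-78049841, plus strand: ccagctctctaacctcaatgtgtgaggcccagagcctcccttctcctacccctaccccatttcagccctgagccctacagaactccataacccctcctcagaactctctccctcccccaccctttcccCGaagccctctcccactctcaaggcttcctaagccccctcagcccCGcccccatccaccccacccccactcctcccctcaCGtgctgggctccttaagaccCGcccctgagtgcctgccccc
Dnmt3a, upstream start, chr12:3806730-3806979, plus strand: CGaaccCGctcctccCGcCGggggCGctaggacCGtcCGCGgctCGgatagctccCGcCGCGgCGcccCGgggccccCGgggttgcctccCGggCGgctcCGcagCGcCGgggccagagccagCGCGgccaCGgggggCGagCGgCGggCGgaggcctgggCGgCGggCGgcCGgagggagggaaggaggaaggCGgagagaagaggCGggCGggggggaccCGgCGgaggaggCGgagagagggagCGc
Dnmt3a, downstream start, chr12:3891494-3891743, plus strand: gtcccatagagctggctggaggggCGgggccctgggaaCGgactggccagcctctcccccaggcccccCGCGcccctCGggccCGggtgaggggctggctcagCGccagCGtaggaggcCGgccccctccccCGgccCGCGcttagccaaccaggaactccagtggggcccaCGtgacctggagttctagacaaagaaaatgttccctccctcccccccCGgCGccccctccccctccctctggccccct
Tet1, chr10:62887325-62887574, minus strand: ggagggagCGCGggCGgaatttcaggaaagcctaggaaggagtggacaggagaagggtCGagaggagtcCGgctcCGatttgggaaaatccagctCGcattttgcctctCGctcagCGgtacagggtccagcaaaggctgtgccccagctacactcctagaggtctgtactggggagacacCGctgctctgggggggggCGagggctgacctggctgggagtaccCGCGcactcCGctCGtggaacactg
Tet3, chr6:83441679-83441928, minus strand: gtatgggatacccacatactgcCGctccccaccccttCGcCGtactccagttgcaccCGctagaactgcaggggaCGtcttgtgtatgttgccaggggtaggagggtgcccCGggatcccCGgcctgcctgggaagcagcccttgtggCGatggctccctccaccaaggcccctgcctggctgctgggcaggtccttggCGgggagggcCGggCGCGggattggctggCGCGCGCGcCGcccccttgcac

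The capitals were sparse in Dnmt3l and dense in the upstream Dnmt3a window. The 3 Dnmt3l windows held 5, 4 and 3 CpG, with observed over expected ratios of 0.272, 0.250 and 0.135, where the expected number follows from the window's own C and G content. All 3 lay under the median of 0.373 over 32851 RefSeq windows of the same length. The upstream pair of Dnmt3a windows, which overlap each other, held 38 and 40 CpG at ratios of 0.938 and 1.09, and the downstream Dnmt3a window held 15 at 0.459. Tet2 had the densest window of the set, with 51 CpG and a ratio of 1.19, above 99.3% of all windows. Tet1 stood at 0.630, Dnmt3b at 0.608 and Tet3 at 0.562.

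Among the 15 windows, 7 reached a ratio of 0.6 and 8 did not, while 66.0% of all windows were below it. The GC box GGGCGG, searched on both strands, was in 11 of the 15 windows and in 32.7% of all windows. CCAAT was in 5 of 15, against 33.8% of all windows. The TATA box TATAAA and the octamer ATGCAAAT were in 0 of 15, against 12.4% and 1.60% of all windows. These matches describe the letters of the windows only, and GGGCGG itself holds a CG, so it overlaps the CpG counts.

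**Figure D1:**
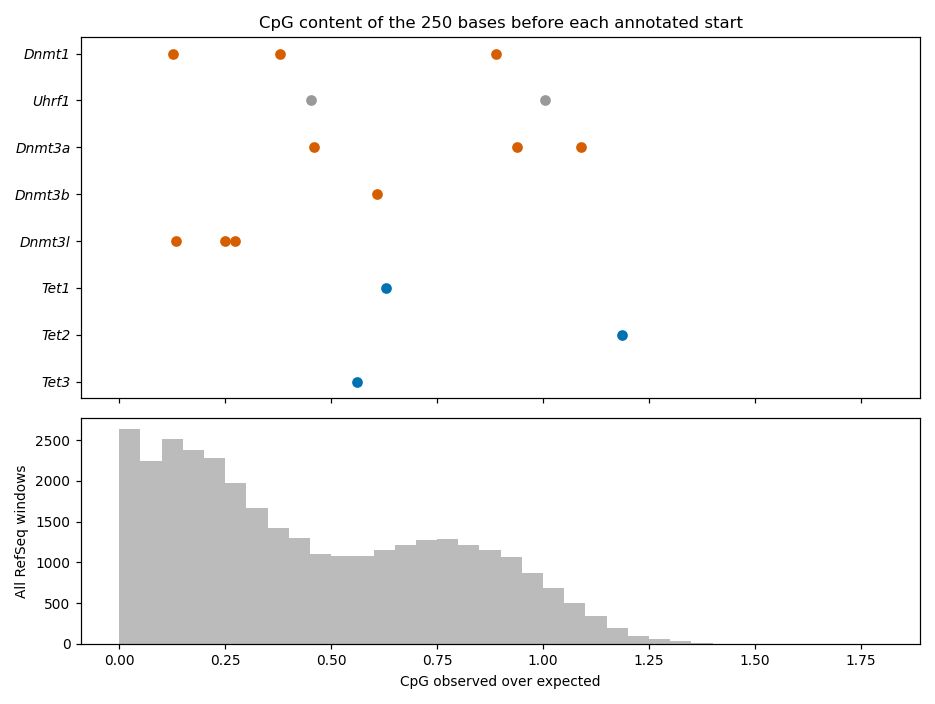
CpG observed over expected (x axis) in the 250 bases before each annotated start, with 1 point per window and 1 row per gene in the upper panel (orange for DNA methyltransferases and Dnmt3l, grey for Uhrf1, blue for Tet genes) and the number of all 32851 RefSeq windows per bin in the lower panel. The 3 Dnmt3l points sit between 0.135 and 0.272, and the Tet2 point at 1.19 is the farthest right.

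Library totals ran from 988210 to 10646768 counts, so that 3 counts, the smallest level treated as measured, equalled between 0.233 CPM (WT day 0 replicate 3) and 7.05 CPM (WT day 10 replicate 3). CPM are counts relative to each library's TMM-scaled total. In 3 day 10 libraries, WT replicate 3 and Sam68 KO replicates 2 and 3, 10 features took 60.2% to 70.4% of the counts, against 24.6% to 30.2% in the other day 10 libraries and 7.01% to 21.3% at day 0. Libraries were sequenced in 3 pools named in the labels: the day 10 libraries of both knockouts shared MIX_3, WT at day 10 shared MIX_2 with Sam68 KO at day 0, and Quaking KO at day 0 shared MIX_1 with its WT counterpart. Within each line the pool and the day cannot be told apart. A footprint count reflects both the amount of an mRNA and its translation, and in bulk samples fewer cells of a type and less RNA per cell cannot be told apart.

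Differentiation went with lower footprints of most of these genes in all 3 lines. In Sam68 KO 6 of the 8 genes fell and Tet3 rose at day 10 relative to day 0, where 65.3% of all 13701 features were called, 34.9% higher and 30.5% lower. In Quaking KO 6 fell and 2, Tet3 and Dnmt3a, rose, where 64.1% of all features were called, 34.7% higher and 29.4% lower. In WT 7 fell and Tet3 rose, where 65% of all features were called, 34.9% higher and 30.1% lower. The median log2 fold change of the 8 genes was -1.89 in Sam68 KO, -2.01 in Quaking KO and -1.87 in WT, while the median of all features was 0.11 in Sam68 KO, 0.11 in Quaking KO and 0.10 in WT. Calls are edgeR quasi-likelihood tests at a Benjamini-Hochberg adjusted p of 0.05 over all features.

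**Figure D2:**
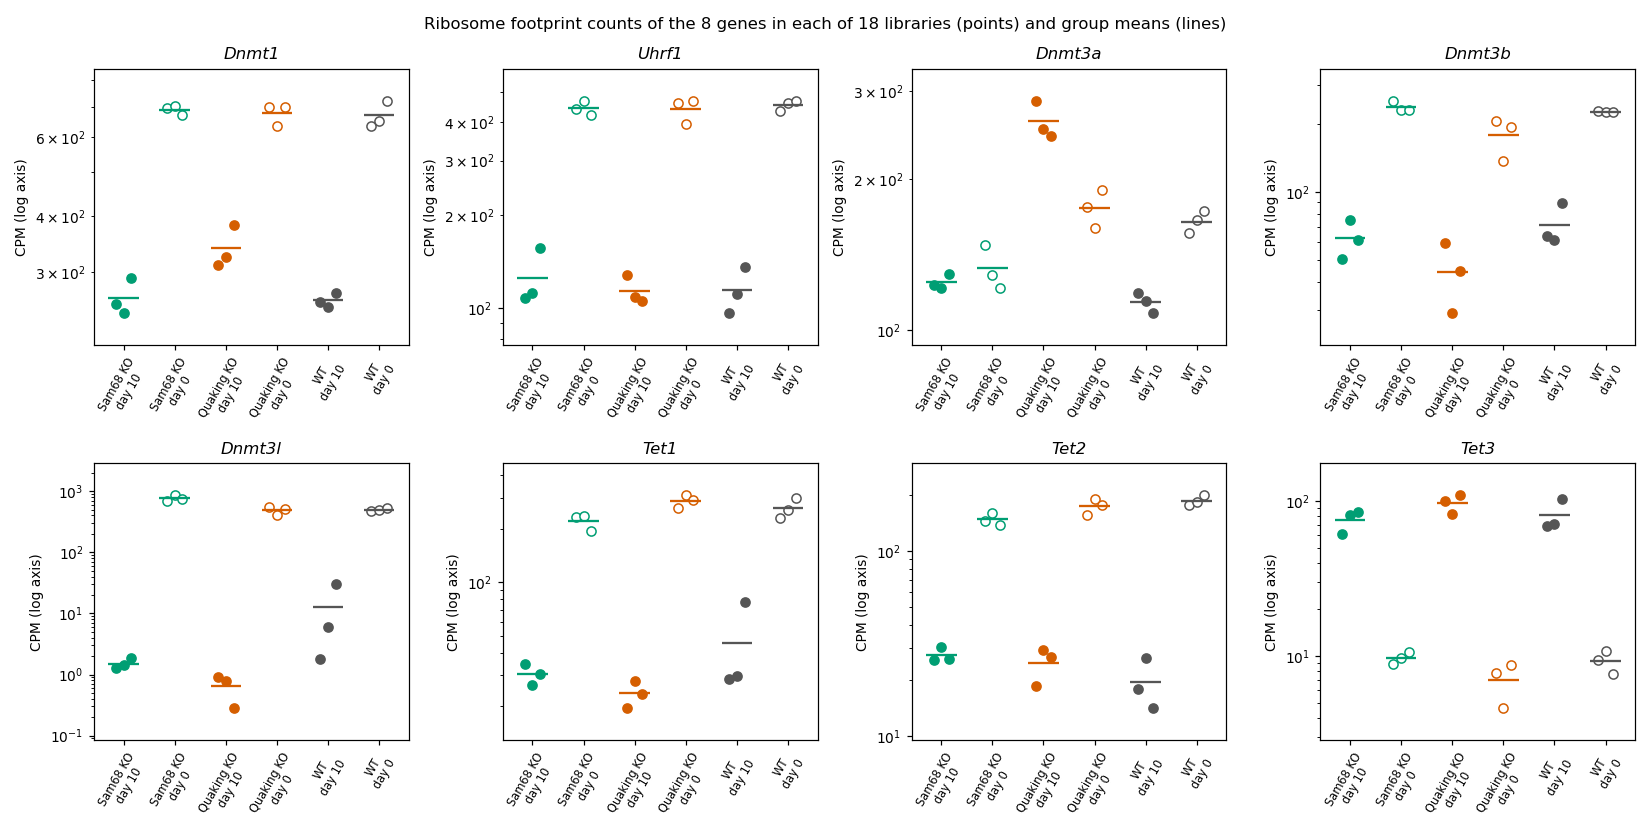
Footprint level in CPM (y axis, log scale, a separate scale per gene) of the 8 genes in each of 18 libraries, shown as points, with group means as lines; filled points are day 10, open points are day 0, green is Sam68 KO, orange is Quaking KO and grey is WT. Tet3 is the panel with filled points above open points in every line, and in the Dnmt3a panel only the Quaking KO day 10 points, at 244 to 288 CPM, stand above all other libraries.

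Dnmt1, the maintenance methyltransferase (chr9:20907206-20959888), had 255, 243 and 292 CPM in Sam68 KO at day 10, against 696, 701 and 672 CPM at day 0. In Quaking KO it had 312, 324 and 383 CPM at day 10, against 699.7, 634 and 699 CPM at day 0. In WT it had 258, 252 and 270.2 CPM at day 10, against 635, 651 and 722 CPM at day 0. No day 10 library reached any day 0 library, and among the day 10 libraries those of Quaking KO were the 3 highest. The log2 fold change between the days was -1.39 (SE 0.118, adjusted p = 2.32e-10) in Sam68 KO, -0.996 (SE 0.117, adjusted p = 6.63e-08) in Quaking KO and -1.37 (SE 0.118, adjusted p = 3.61e-10) in WT.

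Uhrf1, which recognises hemimethylated DNA and brings Dnmt1 to it (chr17:56303337-56323486), had 108, 112 and 156 CPM in Sam68 KO at day 10, against 440, 469 and 422 CPM at day 0. Quaking KO libraries had 128, 109 and 106 CPM at day 10, against 459, 394 and 467 CPM at day 0. WT libraries had 96.4, 111 and 136 CPM at day 10, against 434, 459 and 468 CPM at day 0. The days were fully separated, and within a day the 3 lines overlapped. The log2 fold change of Uhrf1 was -1.83 in Sam68 KO (SE 0.148, adjusted p = 1.07e-10), -1.95 in Quaking KO (SE 0.149, adjusted p = 4.02e-11) and -2.02 in WT (SE 0.151, adjusted p = 2.85e-11).

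The maintenance pair did not fall by the same amount. Dnmt1 counts per Uhrf1 count, a ratio within each library that is free of its scaling, were 2.13 ± 0.252 in Sam68 KO at day 10 and 1.56 ± 0.0539 at day 0 (SD, n = 3 each). They were 3.01 ± 0.594 in Quaking KO at day 10 and 1.54 ± 0.0570 at day 0 (SD, n = 3 each), and 2.31 ± 0.347 in WT at day 10 and 1.47 ± 0.0633 at day 0 (SD, n = 3 each). Over all lines the 9 day 10 libraries lay between 1.86 and 3.62 and the 9 day 0 libraries between 1.42 and 1.61, with no overlap. The ratio was not tested, and since it is not per length only its change between groups can be read.

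Dnmt3a, a de novo methyltransferase (chr12:3801559-3914443), changed in opposite directions in Quaking KO and WT. It had 123, 121 and 129.6 CPM in Sam68 KO at day 10, against 148, 129 and 122 CPM at day 0. In Quaking KO it had 288, 252 and 244 CPM at day 10, against 177, 160.2 and 190.3 CPM at day 0. In WT it had 119, 114 and 108 CPM at day 10, against 156, 166 and 173 CPM at day 0. Quaking KO at day 10 stood above every other library, WT at day 10 lay under all 3 WT day 0 libraries, and the Sam68 KO days overlapped.

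The log2 fold change of Dnmt3a at day 10 relative to day 0 was 0.57 in Quaking KO (SE 0.122, adjusted p = 0.000259), a 1.48-fold rise, and -0.53 in WT (SE 0.124, adjusted p = 0.000668). In Sam68 KO it was -0.09 (SE 0.122, 95% interval -0.33 to 0.15, adjusted p = 0.513). The Quaking KO rise lost its call when features with low counts were kept in the fit, at 0.31 and an adjusted p of 0.295. Dnmt3a is known to make a long and a short protein from separate starts, and counts per gene do not separate them, so the CpG-dense and the CpG-poorer window shown above cannot be tied to a share of these counts. The non-coding genes Dnmt3aos and Gm31623 overlap it, and the use of strand in counting is not given in the sources used here.

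Dnmt3b, the other de novo methyltransferase (chr2:153649411-153687730), had 50.6, 75.5 and 61.1 CPM in Sam68 KO at day 10, against 256, 231 and 232 CPM at day 0. In Quaking KO it had 59.4, 28.9 and 44.6 CPM at day 10, against 207, 137 and 196 CPM at day 0. In WT it had 64.0, 61.1 and 89.3 CPM at day 10, against 229, 227 and 227 CPM at day 0. All 9 day 10 libraries were under all 9 day 0 libraries, and at day 0 the Quaking KO libraries were the 3 lowest. Dnmt3b had a log2 fold change of -1.95 in Sam68 KO (SE 0.205, adjusted p = 1.99e-08), -2.07 in Quaking KO (SE 0.211, adjusted p = 1.26e-08) and -1.73 in WT (SE 0.208, adjusted p = 1.62e-07).

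Dnmt3l, the cofactor without catalytic activity (chr10:78042287-78063622), had few counts left at day 10. Its counts were 10, 3 and 2 in Sam68 KO at day 10, or 1.26, 1.43 and 1.85 CPM, against 698, 850.3 and 747 CPM at day 0. In Quaking KO its counts were 1, 3 and 1 at day 10, or 0.928, 0.775 and 0.280 CPM, against 546, 414 and 509 CPM at day 0. In WT its counts were 12, 27 and 13 at day 10, or 1.80, 5.98 and 30.5 CPM, against 468, 499.8 and 527 CPM at day 0. Every day 0 library was far above every day 10 library, and the WT day 10 libraries were spread more widely than those of either knockout.

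From summed counts relative to summed scaled totals, Dnmt3l was 578 times lower at day 10 than at day 0 in Sam68 KO (95% counting interval 351 to 1034, 15 counts at day 10). The same ratio was 859 in Quaking KO (368 to 2647, 5 counts at day 10) and 113 in WT (85.9 to 151, 52 counts at day 10), and these intervals cover counting error only. The fitted log2 fold changes, which at so few counts depend on the prior count of the fit, were -9.10 in Sam68 KO (SE 0.676, adjusted p = 6.40e-08), -9.64 in Quaking KO (SE 0.740, adjusted p = 9.46e-08) and -6.40 in WT (SE 0.599, adjusted p = 6.90e-07). The WT value was -7.19 without WT day 10 replicate 3, the library with the highest share of counts in few features, and -5.64 without WT day 10 replicate 1. Dnmt3l overlaps the protein-coding gene Aire, and counts of the overlap cannot be assigned.

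Within libraries the balance of the de novo genes shifted toward Dnmt3a at day 10. Dnmt3a counts per Dnmt3b count were 2.44, 1.61 and 2.12 in Sam68 KO at day 10, against 0.580, 0.558 and 0.523 at day 0. They were 4.84, 8.72 and 5.47 in Quaking KO at day 10, against 0.853, 1.17 and 0.973 at day 0. In WT they were 1.86, 1.87 and 1.21 at day 10, against 0.683, 0.730 and 0.759 at day 0. Each Quaking KO day 10 library lay above every other library, and all 9 day 10 ratios were above all 9 day 0 ratios.

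Dnmt3l counts per Dnmt3b count lay between 0.00629, on 1 count, and 0.342 over the 9 day 10 libraries and between 2.05 and 3.68 over the 9 day 0 libraries. The cofactor therefore fell more than the enzyme in every line, and the highest day 10 value was again WT replicate 3. Neither ratio was tested.

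**Figure D3:**
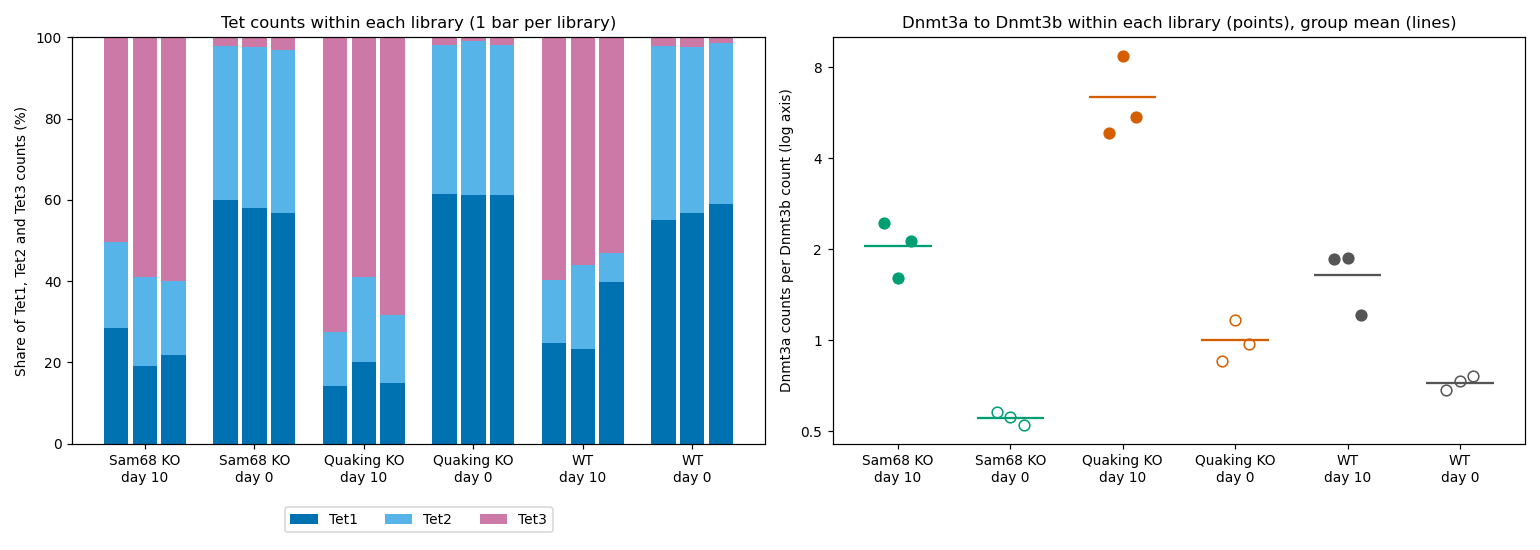
Left, share of the summed Tet1, Tet2 and Tet3 counts taken by each gene (y axis, percent), 1 bar per library; right, Dnmt3a counts per Dnmt3b count (y axis, log scale), 1 point per library with the group mean as a line, filled for day 10 and open for day 0. Tet3 takes 50.3% to 72.5% of Tet counts at day 10 and 0.909% to 3.11% at day 0, and the Quaking KO day 10 ratios, 4.84 to 8.72, are the highest on the right.

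Tet1, the dioxygenase best known from stem cells (chr10:62804570-62887469), had 34.5, 26.3 and 30.6 CPM in Sam68 KO at day 10, against 233, 235 and 194 CPM at day 0. Quaking KO libraries of Tet1 had 19.5, 27.9 and 23.5 CPM at day 10, against 261, 309 and 291 CPM at day 0. WT libraries of Tet1 had 28.6, 29.5 and 77.5 CPM at day 10, against 229.6, 255 and 299.6 CPM at day 0. WT day 10 replicate 3, where Tet1 had 33 counts, stood apart from the other day 10 libraries, and all day 10 libraries were under all day 0 libraries. Its log2 fold change was -2.84 in Sam68 KO (SE 0.249, adjusted p = 6.65e-09), -3.57 in Quaking KO (SE 0.258, adjusted p = 4.24e-10) and -2.80 in WT (SE 0.257, adjusted p = 1.36e-08).

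Tet2, a dioxygenase of stem and blood cells (chr3:133463677-133545136), had 25.7, 30.1 and 25.9 CPM in Sam68 KO at day 10, against 146, 161 and 138 CPM at day 0. Quaking KO had 18.6, 29.2 and 26.6 CPM at day 10, against 156, 192 and 176 CPM at day 0. WT had 17.99, 26.4 and 14.1 CPM at day 10, against 177, 185 and 199.9 CPM at day 0. Lines overlapped within day 10 and the days were separated in each line. The log2 fold change was -2.45 in Sam68 KO (SE 0.172, adjusted p = 8.22e-12), -2.76 in Quaking KO (SE 0.174, adjusted p = 1.18e-12) and -3.16 in WT (SE 0.181, adjusted p = 2.09e-13).

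Tet3, the dioxygenase known from the oocyte and from neural tissue (chr6:83362373-83457208), ran the other way. It had 60.9, 81.2 and 84.3 CPM in Sam68 KO at day 10, against 8.83, 9.74 and 10.6 CPM at day 0. Quaking KO had 100.2, 81.8 and 108 CPM at day 10, against 7.76, 4.59 and 8.74 CPM at day 0. WT had 68.8, 70.9 and 103 CPM at day 10, against 9.44, 10.8 and 7.61 CPM at day 0. The lowest day 10 library was above the highest day 0 library. The lines overlapped at day 10, while at day 0 all Sam68 KO libraries lay above all Quaking KO libraries and both overlapped WT.

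Tet3 rose 7.62-fold in Sam68 KO (log2 fold change 2.93, SE 0.207, adjusted p = 9.30e-12), 13.2-fold in Quaking KO (3.72, SE 0.232, adjusted p = 1.01e-12) and 8.39-fold in WT (3.07, SE 0.210, adjusted p = 4.90e-12). The day 0 values rest on 8 to 98 counts per library. The non-coding genes Mir6374 and B230319C09Rik overlap Tet3, Gm51805 overlaps Tet1 and Mir7081 overlaps Dnmt1. Their part in the counts was not tested. As a share of Tet counts in the library, Tet3 took 56.4% ± 5.29 in Sam68 KO at day 10 and 2.59% ± 0.450 at day 0 (SD, n = 3 each). In Quaking KO it took 66.6% ± 6.95 at day 10 and 1.52% ± 0.531 at day 0, and in WT 56.2% ± 3.31 at day 10 and 2.05% ± 0.481 at day 0 (SD, n = 3 each).

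The Tet1 share was 14.1% to 39.8% over all day 10 libraries and 55.1% to 61.5% over all day 0 libraries, and the Tet2 share was 7.23% to 21.9% at day 10 and 36.7% to 42.6% at day 0. Summed Tet counts behind these shares were 1402 in Sam68 KO at day 10 and 8600 at day 0, 1253 in Quaking KO at day 10 and 3832 at day 0, and 1425 in WT at day 10 and 12627 at day 0. The windows of Tet1 and Tet3 shown above, whose footprints moved in opposite directions, had CpG ratios of 0.630 and 0.562.

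**Figure D4:**
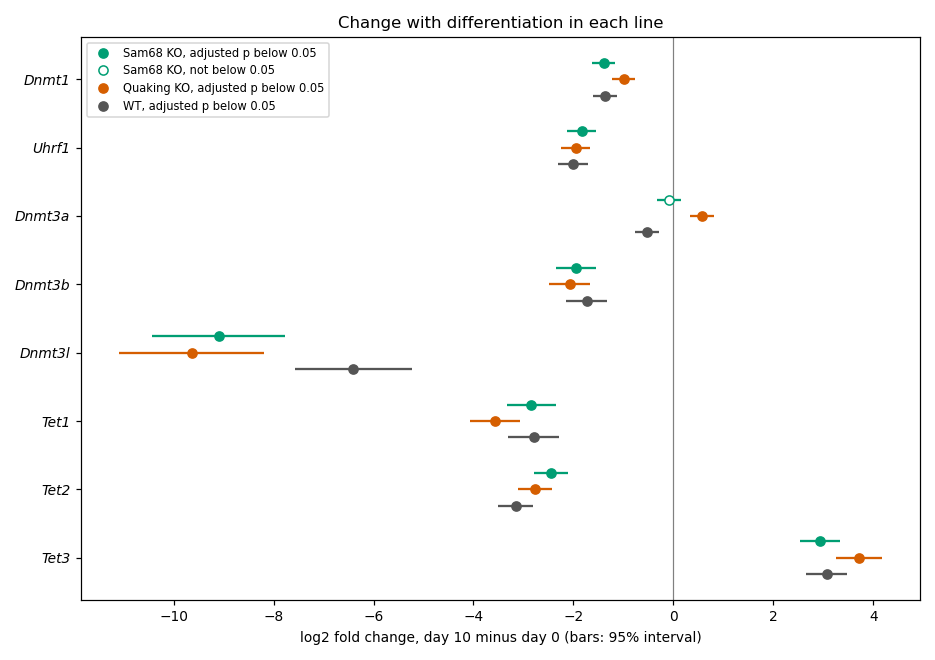
Log2 fold change of footprints at day 10 minus day 0 (x axis) for each of the 8 genes (rows) in Sam68 KO (green), Quaking KO (orange) and WT (grey). Points are estimates, bars approximate 95% intervals from a normal quantile, and an open point has an adjusted p of 0.05 or more. Dnmt3a is the row in which the lines fall on different sides of 0, at -0.09 in Sam68 KO, 0.57 in Quaking KO and -0.53 in WT, and Tet3 is the row in which all 3 lines lie at 2.93 or above.

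No line had both days in 1 pool, so the nearest comparison inside a pool was WT at day 10 against Sam68 KO at day 0, both in MIX_2, which differ in line as well as day. It called 7 of the 8 genes in the same directions as the day changes, and its log2 fold changes ran from -7.02 for Dnmt3l to 2.98 for Tet3. The exception was Dnmt3a, at -0.22 with an adjusted p of 0.129. That comparison called 8916 of the 13701 features and was chosen after the data had been seen.

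At day 0 no difference between lines passed the test for any of the 8 genes. Sam68 KO against WT called 0 of 8, where 1.26% of all features were called. DESeq2 also called 0, where it called 1.86% of all features. At an unadjusted p of 0.05 edgeR gave 2, for which the share of all features was not computed. The largest differences were Dnmt3l, 1.54-fold (log2 fold change 0.62, 95% interval -0.19 to 1.42, adjusted p = 0.731), Tet2 at -0.34 (95% interval -0.63 to -0.04, adjusted p = 0.461) and Dnmt3a at -0.31 (95% interval -0.55 to -0.08, adjusted p = 0.322). Dnmt3l libraries did not overlap between these groups, and a fit of these groups alone called it (adjusted p = 0.00486). The groups lie in different pools, so that line and pool cannot be told apart there.

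Quaking KO against WT at day 0, both in MIX_1, called 0 of 8, where 0.365% of all features were called. DESeq2 also called 0, where it called 0.423% of all features. At an unadjusted p of 0.05 edgeR gave 0 as well. The log2 fold changes ran from -0.34 for Dnmt3b to 0.13 for Tet1, and Dnmt3a was at 0.09 (95% interval -0.14 to 0.33). A p above the threshold does not show that these levels were equal.

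Sam68 KO against Quaking KO at day 0 also called 0 of 8, where 3.31% of all features were called. At an unadjusted p of 0.05 there were 2, for which the share of all features was not computed. The gene with the smallest adjusted p was Dnmt3a, 133 ± 13.7 CPM in Sam68 KO and 176 ± 15.1 CPM in Quaking KO (SD, n = 3 each), at a log2 fold change of -0.40 (SE 0.121, adjusted p = 0.0655). DESeq2 called it (-0.50, adjusted p = 0.00108), as did RLE scaling (-0.49, adjusted p = 0.0245) and 3 more of the 13 alternative settings. Dnmt3b at 0.41 (adjusted p = 0.316) was not called. At day 0 Sam68 KO lay in MIX_2 and Quaking KO in MIX_1, so line and pool cannot be told apart there.

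At day 10 Dnmt3a stood apart in Quaking KO, and it alone was called against both other lines in every alternative setting. Against WT, Quaking KO had 2 genes higher, Dnmt3a and Dnmt1, and 2 lower, Dnmt3b and Dnmt3l. That is 4 of 8, where 23.9% of all features were called, 11.1% higher and 12.8% lower. A fit of only the groups compared called 1, Dnmt3a, where 16.2% of all features were called, and did not test Dnmt3l. Dnmt3a averaged 261 ± 23.2 CPM in Quaking KO and 114 ± 5.43 CPM in WT (SD, n = 3 each), 2.28-fold higher (log2 fold change 1.19, SE 0.126, adjusted p = 1.36e-07). It was called in all 14 alternative settings, at 1.13 to 1.33 with an adjusted p of at most 0.000179. Quaking KO at day 10 was sequenced in MIX_3 and WT at day 10 in MIX_2, so for this comparison line and pool cannot be told apart.

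The other 3 differences from WT at day 10 were smaller or rested on few libraries. Dnmt1 was 339.5 ± 37.9 CPM in Quaking KO and 259.9 ± 9.44 CPM in WT (SD, n = 3 each; log2 fold change 0.39, SE 0.117, adjusted p = 0.0167), and it was not called without Quaking KO replicate 3 (0.30, adjusted p = 0.106) or WT replicate 2 (0.36, adjusted p = 0.0756). The Dnmt1 call was also lost without the filter on low counts (adjusted p = 0.182), in a fit of only the groups compared (adjusted p = 0.1003) and with libraries thinned to the smallest total (adjusted p = 0.0677), and it held in 9 of 14 alternative settings. Dnmt3b was 44.3 ± 15.2 CPM in Quaking KO and 71.5 ± 15.5 CPM in WT (SD, n = 3 each; log2 fold change -0.68, SE 0.216, adjusted p = 0.0250). It was not called without Quaking KO replicate 2 (-0.41, adjusted p = 0.163), Quaking KO replicate 3 (-0.70, adjusted p = 0.0622) or WT replicate 3 (-0.58, adjusted p = 0.0564), nor in only the groups compared (adjusted p = 0.125) or after thinning (adjusted p = 0.0511).

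Dnmt3l differed by a log2 fold change of -3.26 between Quaking KO and WT at day 10 (SE 0.972, adjusted p = 0.0277), on 5 counts in Quaking KO and 52 in WT. Its value was -4.13 (adjusted p = 0.000403) without WT replicate 1 and -2.60 (adjusted p = 0.00151) without WT replicate 3. It was not called without Quaking KO replicate 2 (-3.66, adjusted p = 0.0713), Quaking KO replicate 3 (-2.82, adjusted p = 0.111) or WT replicate 2 (-3.21, adjusted p = 0.0883). Tet1 was at -0.63 (adjusted p = 0.0928) and was called without WT replicate 1 (-0.87, adjusted p = 0.0294), WT replicate 2 (-0.86, adjusted p = 0.0466) or after thinning (-0.79, adjusted p = 0.0442), while without WT replicate 3 it was at -0.28 (adjusted p = 0.264).

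Sam68 KO against WT at day 10 called 0 of 8, where 0.175% of all features were called. DESeq2 also called 0, where it called 0.54% of all features. At an unadjusted p of 0.05 edgeR gave 1, Dnmt3l, and the share of all features was not computed. The log2 fold changes ran from -2.08 for Dnmt3l (95% interval -3.66 to -0.50, adjusted p = 0.606, 15 counts in Sam68 KO and 52 in WT) to 0.37 for Tet2. Dnmt3l was called when features with low counts were kept (adjusted p = 0.0103). Dnmt3a was 125 ± 4.33 CPM in Sam68 KO and 114 ± 5.43 CPM in WT (SD, n = 3 each), a log2 fold change of 0.12 (95% interval -0.12 to 0.37, adjusted p = 0.966). Sam68 KO lay in MIX_3 and WT in MIX_2, so line and pool cannot be told apart here either.

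Sam68 KO and Quaking KO at day 10 were sequenced together in MIX_3, which gives the day 10 comparison of lines within a pool. Sam68 KO had 2 of 8 genes lower, Dnmt3a and Dnmt1, and 0 higher, where 23.7% of all features were called and 10.6% were lower. Dnmt3a averaged 125 ± 4.33 CPM in Sam68 KO and 261 ± 23.2 CPM in Quaking KO (SD, n = 3 each), with no overlap (log2 fold change -1.06, SE 0.124, adjusted p = 5.34e-07). It was called in all 14 alternative settings, at -1.16 to -1.01 with an adjusted p of at most 6.27e-05. Dnmt3a of Quaking KO at day 10 was thus 2.09-fold that of Sam68 KO within a pool and 2.28-fold that of WT across pools, in comparisons that share the Quaking KO libraries.

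Dnmt1 was 263 ± 25.3 CPM in Sam68 KO and 339.5 ± 37.9 CPM in Quaking KO at day 10 (SD, n = 3 each; log2 fold change -0.37, SE 0.116, adjusted p = 0.0220). Its call was lost without Quaking KO replicate 3 (-0.28, adjusted p = 0.134), Sam68 KO replicate 1 (-0.36, adjusted p = 0.0647) or Sam68 KO replicate 2 (-0.32, adjusted p = 0.111). It was also lost without the filter (adjusted p = 0.131), in only the groups compared (adjusted p = 0.0766), after thinning (adjusted p = 0.0577) and without the 3 libraries dominated by few features (adjusted p = 0.0858), and it held in 7 of 14 alternative settings. Dnmt3b was at 0.53 (adjusted p = 0.0745) and was called without Quaking KO replicate 1 (0.74, adjusted p = 0.0133) or Sam68 KO replicate 1 (0.67, adjusted p = 0.0450).

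**Figure D5:**
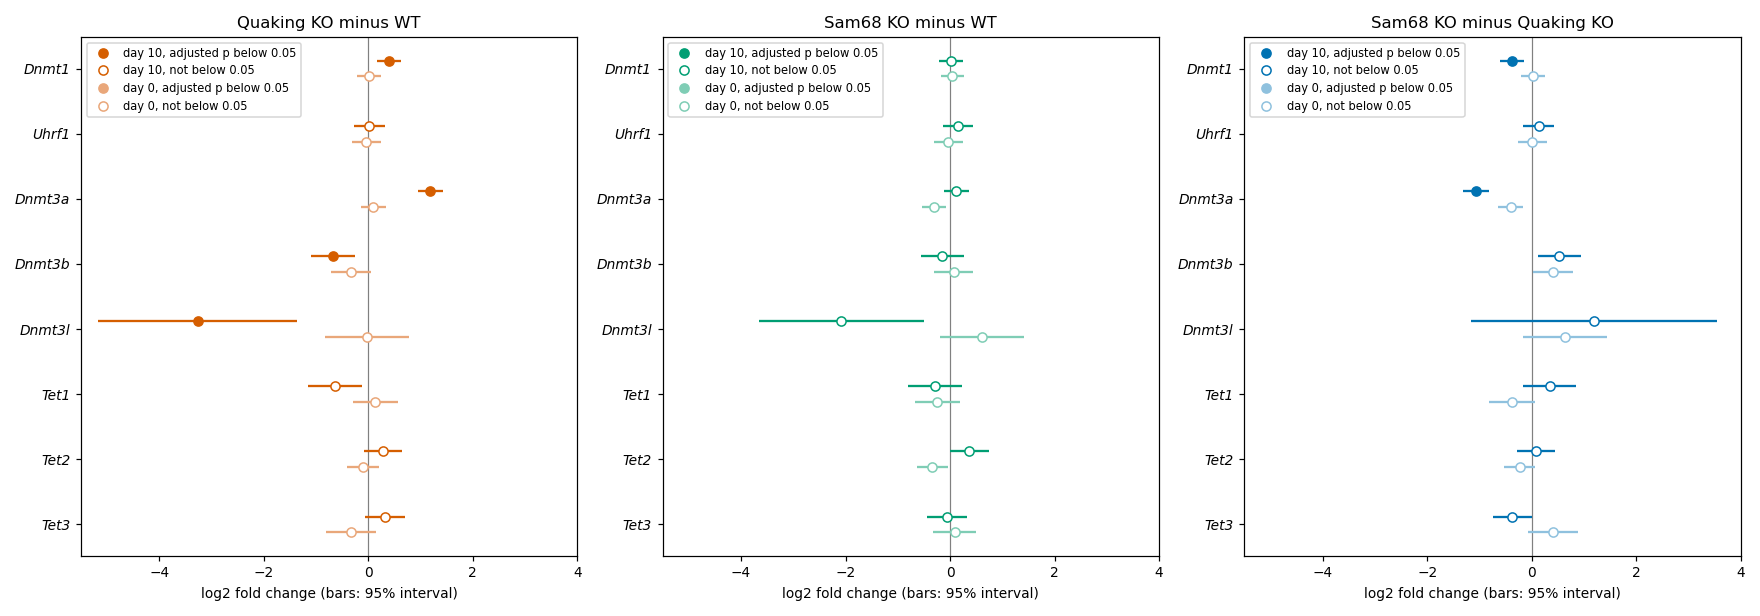
Log2 fold change between lines (x axis) for each of the 8 genes (rows), with Quaking KO minus WT on the left, Sam68 KO minus WT in the middle and Sam68 KO minus Quaking KO on the right. Darker points are day 10, lighter points day 0, bars are approximate 95% intervals from a normal quantile and filled points have an adjusted p below 0.05. Dnmt3a lies at 1.19 on the left and -1.06 on the right at day 10, and no day 0 point is filled.

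Whether the change over the days differed between lines was tested as an interaction. For Quaking KO against WT 1 of 8 genes was called, Dnmt3a, where 8.88% of all features were called. At an unadjusted p of 0.05 there were 5, for which the share of all features was not computed. The log2 difference of the Dnmt3a day changes was 1.09 (SE 0.173, adjusted p = 0.000151). It was called in all 20 alternative settings, at 1.05 to 1.17 with an adjusted p of at most 0.00793. Dnmt3l was at -3.24 (adjusted p = 0.0862) and was called without WT day 10 replicate 1 (-4.10, adjusted p = 0.00238) or WT day 10 replicate 3 (-2.56, adjusted p = 0.00738), without the filter (adjusted p = 0.000128), with DESeq2 (adjusted p = 0.00689) and without the 3 dominated libraries (-2.52, adjusted p = 0.0224). Tet1 at -0.77 (adjusted p = 0.193), Tet3 at 0.65 (adjusted p = 0.215) and Dnmt1 at 0.37 (adjusted p = 0.175) did not pass over all features.

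For Sam68 KO against WT the interaction called 0 of 8, where 0.431% of all features were called. DESeq2 also called 0, where it called 0.898% of all features. At an unadjusted p of 0.05 edgeR gave 3, for which the share of all features was not computed. The 3 were Tet2 at 0.71 (SE 0.240, adjusted p = 0.317), Dnmt3a at 0.43 (SE 0.173, adjusted p = 0.412) and Dnmt3l at -2.70 (SE 0.904, adjusted p = 0.353). Dnmt3l was called without WT day 10 replicate 1 (-3.55, adjusted p = 0.0392) or without the filter (adjusted p = 0.00128). In both interactions the lines change pool between the days in different ways, so that pool and line cannot be told apart there.

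Ordered by group mean, Dnmt3a ran from Quaking KO at day 10 through Quaking KO and WT at day 0, which overlapped, and Sam68 KO at day 0 and day 10, which overlapped, to WT at day 10. Sam68 KO and WT did not overlap on either day. By edgeR's test their Dnmt3a difference did not pass at day 0 (log2 fold change -0.31, adjusted p = 0.322) or day 10 (0.12, adjusted p = 0.966). For Dnmt3b the means ran from Sam68 KO through WT to Quaking KO at day 0, without overlap. The 3 day 10 groups followed and overlapped with their neighbours. No Dnmt3b difference between lines at day 0 passed edgeR's test. Sam68 KO against WT was at 0.07 (adjusted p = 0.976) and Quaking KO against WT at -0.34 (adjusted p = 0.844). Sam68 KO against Quaking KO was at 0.41 (adjusted p = 0.316). How often triplicates separate without a difference was not computed. For Dnmt3l the order of means was Sam68 KO at day 0, then WT and Quaking KO at day 0, which overlapped, then the 3 day 10 groups. At day 0 the Dnmt3l difference of Sam68 KO from WT did not pass edgeR's test (0.62, adjusted p = 0.731). That from Quaking KO did not pass either (0.64, adjusted p = 0.527). Sam68 KO and Quaking KO at day 10, with 1 to 10 counts of Dnmt3l per library, have no order there (log2 fold change 1.18, 95% interval -1.17 to 3.54, adjusted p = 0.534). For the Tet genes and Uhrf1 neighbouring groups overlapped within each day and no neighbours overlapped across the days. Dnmt1 followed that order at day 0, while at day 10 Quaking KO lay above Sam68 KO and WT, which overlapped.

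Across the 18 libraries, which the day divides into separate clusters, the log2 CPM of Dnmt1 and Uhrf1 correlated at r = 0.96, that of Dnmt3l and Tet1 at 0.98 and that of Tet2 and Tet3 at -0.98. Within the 9 day 10 libraries Dnmt1 and Uhrf1 stood at 0.05, and within the 9 day 0 libraries at 0.71. Dnmt3l and Tet1 stood at 0.87 within day 10 and at -0.68 within day 0. WT replicate 3, the highest day 10 library in both on 13 counts of Dnmt3l and 33 of Tet1, enters the day 10 value. So do the knockout libraries with 1 to 10 counts of Dnmt3l. Tet2 and Tet3 stood at -0.30 within day 10 and at -0.46 within day 0. Dnmt3a correlated with the other 7 genes at -0.19 to 0.20 over 18 libraries. Within day 10 it correlated with Dnmt1 at 0.83, a value that the Quaking KO libraries, high in both, enter. These values are descriptions over libraries that share group, pool and depth.

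By the same measure over 18 libraries, the feature nearest to Tet1 was ENSMUSG00000037851.13, at r = 0.99, and 467 of the other 13700 features tested exceeded 0.95. The feature nearest to Tet3 was ENSMUSG00000017493.12, at r = 0.99, with 669 features above 0.95, and for Dnmt3b 100 features were above 0.95.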

How the data were processed

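Each of the 18 samples had 1 deposited table of whole-number counts per Ensembl feature, used as the authors deposited it. The submitters' processing notes name STAR 2.5.3a, Bowtie2 and bcl2fastq 2.17.1.14 as tools, and GRCm38 and mm10 as builds. Which program counted, with which annotation and strand setting, is not given in the sources used here.

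Counts were tested with edgeR 4.0.16 (limma 3.58.1, R 4.3.3): TMM scaling, the default filter by group, a robust quasi-likelihood fit of 6 groups of 3 libraries, two-sided tests, and Benjamini-Hochberg adjustment over 13701 features at 0.05. There were 11 comparisons, 2 of them interactions. Log2 CPM used a prior count of 2. The filter kept at least 99.4% of each library's counts, the common biological coefficient of variation was 0.229, and all replicate pairs differed by more than sampling noise (smallest chi-square over its degrees of freedom 4.80). The procedure was also run on data simulated from its own fitted spread, which cannot show that its error rate holds in these libraries. Replicate numbers did not pair the libraries: 6 of 45 same-number pairs correlated above 0.1, and the range was -0.19 to 0.44.

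Alternatives were no filter, upper quartile or RLE scaling, DESeq2 1.42.0, a replicate block, a pool block, a fit of only the compared groups, thinning to the smallest total, omission of the 3 libraries dominated by 10 features, and omission of each library in turn. All 8 genes are named whatever their values. The genes, lists and tests were chosen with earlier results of these data known. No table used here paired other Ensembl identifiers with symbols. The wider pathway list, cell type markers and levels of the knocked-out genes were therefore not analysed here, genotypes rest on the labels, and levels were not computed per length. Promoter letters and gene positions are from RefSeq (GRCm38.p6).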

Additional observations from a re-analysis of the deposited data

Results flagged for a closer look

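The change of Dnmt3a between the days differed between Quaking KO and WT. By the interaction term of edgeR's quasi-likelihood fit the log2 difference was 1.09 (adjusted p = 0.000151), with a rise in Quaking KO and a fall in WT, and all 3 Quaking KO day 10 libraries lay above all other libraries of both lines. Quaking KO at day 10 and WT at day 10 were in different pools, and the part of the pool in this difference was not tested.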

How the results depend on the processing

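Of 426 alternative values of called genes, 403 kept the call and direction and 23 lost it. Of these, 314 belonged to the day changes, where 313 kept it and the exception was the Quaking KO change of Dnmt3a without a filter on low counts. In 1317 alternative values the sign changed 83 times, in 0 of them with a call in either setting. The Sam68 KO day change of Dnmt3a was -0.09 and turned to 0.027 with libraries thinned to the smallest total (adjusted p = 0.945).

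Counts of the 8 genes called are given with the share of all features called in the same setting. The ranges with 1 library left out are given without that share, which differed between the omissions. Quaking KO against WT at day 10 called 4 (23.9%), against 1 in a fit of only the groups compared (16.2%), where Dnmt3l was not tested, 3 without the filter on low counts (8.57%), 3 after thinning (20%) and 1 to 5 with 1 library left out. Sam68 KO against Quaking KO at day 10 called 2 (23.7%), against 1 without the filter (8.55%), in only the groups compared (20.4%), after thinning (18.6%) and without the 3 dominated libraries (14.9%), and 1 to 3 with 1 library left out. At day 0 the same lines called 0 (3.31%), against 1 (Dnmt3a) with DESeq2 (3.74%), RLE scaling (2.74%), upper quartile scaling (2.69%) and thinning (1.83%), and 3 in only the groups compared (4.36%). There the median of all features was 0.11 with TMM, 0.02 with RLE and 0.01 with upper quartile scaling. Sam68 KO against WT called 0 at day 0 (1.26%) and 0 at day 10 (0.175%). It called 1 (Dnmt3l) at day 0 in only the groups compared (2.44%) and 1 (Dnmt3l) at day 10 without the filter (0.286%). The Quaking KO interaction called 1 (8.88%), against 2 with DESeq2 (9.63%), without the filter (3.07%) and without the 3 dominated libraries (8.56%), and 1 to 2 with 1 library left out. The Sam68 KO interaction called 0 (0.431%), against 1 without the filter (0.389%) and 0 to 1 with 1 library left out. The additional call in these interactions was Dnmt3l. Among the fitted values, Dnmt3l moved most: its WT day change, -6.40, was -5.66 with DESeq2, -5.64 after thinning and -7.11 without the 3 dominated libraries, and its Sam68 KO day change, -9.10, was -8.14 after thinning. The cause of these shifts was not tested.

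With the replicate number as a block (replicate block), Quaking KO against WT at day 10 still called 4 of 8 genes and no count of called genes changed in any comparison. The numbers do not pair the samples, and 6 of 18 libraries correlated best with their own number. In additive fits of line and day, which assume no interaction, Quaking KO against WT called 2 genes (8.5% of all features), Sam68 KO against WT 0 (0.219%) and day 7 (77.4%). With pool added the counts were 0 (0.365%), 1 (Dnmt3a, -0.97, adjusted p = 0.000522; 8.77%) and 8 (40.7%). That fit has as many terms as there are groups, so it only re-expresses differences between groups and is no correction for pool: its Quaking KO values are those of the day 0 comparison, and the Dnmt3a value for Sam68 KO is the sum of 0.09 (Quaking KO against WT at day 0) and -1.06 (Sam68 KO against Quaking KO at day 10), where the direct Sam68 KO comparisons with WT gave 0.12 at day 10 and -0.31 at day 0. Depth limits Dnmt3l at day 10, with 5 counts over the Quaking KO libraries.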
